A study of Mus musculus with 76 samples.

Results

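Both forms of tumor-localized catalase (CAT) were combined in 5 tumors, and these were set against 6 tumors that received neither. The 5 tumors grew from 4T1-CAT cells, a 4T1 mouse mammary carcinoma line engineered to express CAT inside the cell together with GFP when doxycycline (DOX) is given, and were injected with 20 μg of CAT-ABP, a CAT fused to a peptide that binds alum, meant to keep it mostly outside the cells, with 100 μg alum. The 6 tumors grew from 4T1-control cells, which carry inducible GFP alone, and were injected with 100 μg alum. The members were all tumors that the sample labels place in these groups, 11 of the 38 tumors of the study and 22 of its 76 libraries, since RNA of each tumor was sequenced as 2 technical replicates (library 1 and library 2). Both groups consisted of Balb/c mice that received 500000 cells under the skin of the flank on day 0, DOX diet from day 4, the intratumoral injection on day 6 and harvest on day 8, all days as in the sample labels. The text of the study places the diet, injection and harvest of these tumors a day later each. Alum, DOX, GFP and the way the cells were engineered were therefore shared, and the groups differed in cell line, intracellular CAT and CAT-ABP. 4T1-CAT and 4T1-control are separately engineered lines, so other differences between the lines cannot be told apart from intracellular CAT. The transgene was delivered by lentivirus, in cells selected with puromycin and sorted for GFP, and is a human CAT without its peroxisomal signal. It has no row of its own in the mouse count table, so its expression could not be checked here. The epithelial markers of the 4T1 line were present in all 11 tumors, with Krt8 between 553 and 992 CPM (counts scaled to a common library total of 1000000) and Epcam between 179 and 420 CPM.

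Catalase turns hydrogen peroxide into water and oxygen. Peroxide is also removed by peroxiredoxins and glutathione peroxidases, and cells that sense oxidative stress turn on genes under the factor NRF2, while cells short of oxygen turn on glycolytic and angiogenic genes under the factor HIF. Peroxide is also made by neutrophils and macrophages, and interferon gamma from T cells and natural killer (NK) cells turns on guanylate-binding proteins, immunity-related GTPases and the ligands of the receptor CXCR3. The comparison asked which of these programs, and which others, differed in tumors with both catalases.

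The depth of the libraries differed between the groups before any gene was compared. With both catalases a tumor had 4505755 to 8709773 summed counts (median 5339033), and without them 493044 to 4569427 (median 3523254), a difference of 1.1 on the log2 scale (two-sided exact permutation test, p = 0.0281). In library 1 the counts lay between 2521089 and 6908941 with both catalases and between 46201 and 1257047 in the controls, so the groups did not overlap (p = 0.00433 on the log2 scale, same exact test). In library 2 they lay between 211830 and 2104292 and between 321668 and 4367490 (p = 0.368). As a consequence, library 1 supplied between 56.0% and 95.5% of the counts of a tumor with both catalases and between 1.05% and 43.7% of those of a control tumor, and in the sum the library and the group cannot be told apart. Library 1 of these tumors came from 1 sequencing pool and library 2 from another, and both groups were present in each pool. Mitochondrial transcripts took between 3.44% and 4.94% of the counts with both catalases and between 4.16% and 6.34% in the controls (p = 0.0281, same exact test).

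**Figure D1:**
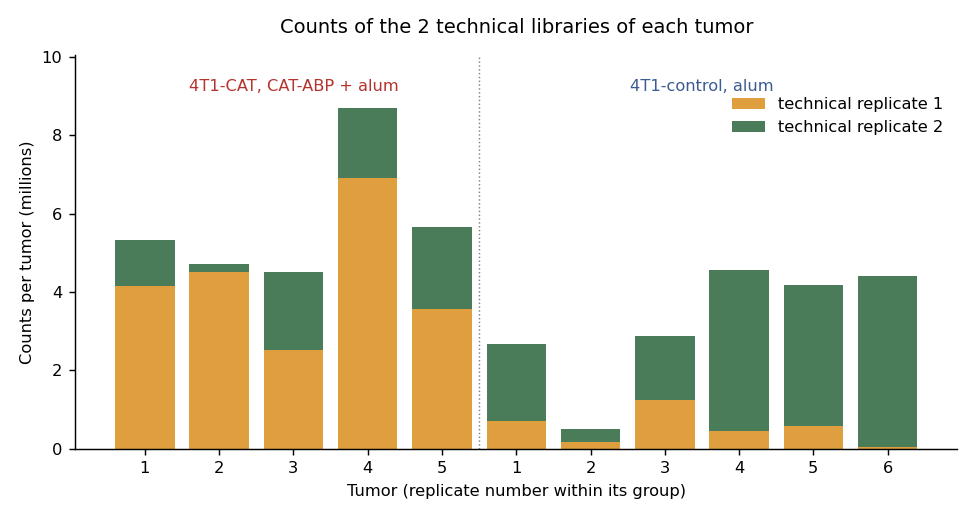
Counts per tumor (y axis in units of 1000000 counts), stacked by technical replicate (library 1 in orange, library 2 in green), for the 5 tumors with both catalases and the 6 control tumors. Library 1 makes up between 56.0% and 95.5% of each bar on the left and between 1.05% and 43.7% on the right.

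Few genes passed the threshold when the 2 libraries of a tumor were summed. Of 12781 genes tested, 3 were called at an adjusted p of 0.05 or less (0.0235%; edgeR's quasi-likelihood test, Benjamini-Hochberg adjustment), 2 higher and 1 lower with both catalases. Without adjustment, 910 genes (7.12%) were higher and 1252 genes (9.8%) were lower at p under 0.05. The lists of genes below are read against these shares. The count of calls depended on the setting and on single tumors, with 491 calls by DESeq2, 1 higher and 1 lower by edgeR with RLE size factors, 575 without control replicate 3, 131 without control replicate 2 and 0 without replicate 1 of the tumors with both catalases. In 262 genes (2.05%) the CPM of the 5 and the 6 tumors did not overlap. When library 1 was tested alone, edgeR called 0 of 9736 genes, with 336 genes (3.45%) higher and 629 genes (6.46%) lower at unadjusted p under 0.05. When library 2 was tested alone, edgeR called 1 of 10458 genes, with 210 (2.01%) higher and 151 (1.44%) lower. A model of the 22 single libraries, with the technical replicate as a covariate and the tumor as a random block (limma voom, chosen after the imbalance was seen), called 3 of 12781 genes (0.0235%), with 536 (4.19%) higher and 399 (3.12%) lower without adjustment. None of the 3 genes called in the sum was called in this covariate model. The model assumes the same within-tumor correlation for all genes. Its p-values can therefore be too small for genes that vary more between tumors.

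The genes called in the summed counts were Gm38194, Glg1 and Rpl19-ps11. Gm38194 and Rpl19-ps11 are named because they were called. Glg1, a protein of the Golgi that binds fibroblast growth factors and E-selectin, lies on the minus strand of chromosome 8 at 111154421 to 111259216 (GRCm38). It was at 61.5, 58.4, 49.4, 69.0 and 59.1 CPM in the 5 tumors with both catalases and at 31.5, 41.1, 41.9, 28.8, 29.1 and 31.2 CPM in the 6 control tumors. Every tumor with both catalases was above every control, and Glg1 rose by 0.85 ± 0.14 on the log2 scale (SE; adjusted p = 0.0341). Within library 1 the mean was 67.4 ± 6.48 CPM against 46.8 ± 17.2 CPM (SD, n = 5 and 6 tumors), and within library 2 it was 37.0 ± 3.69 CPM against 27.1 ± 4.06 CPM. Glg1 was thus read at a higher level in library 1 than in library 2 in both groups, and its log2 difference was 0.39 in library 1, 0.45 in library 2 and 0.40 ± 0.13 in the covariate model (adjusted p = 0.433, limma voom). Over 22 alternatives the adjusted p of Glg1 lay between 4.94e-05 and 1, and it was called in 10. In the 5 4T1-CAT tumors given alum alone, which are not part of this comparison, Glg1 was 0.52 higher in library 1 than in library 2 on the log2 scale.

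Gm38194, a predicted gene on chromosome 1 (195321283 to 195323493, plus strand) of the class still to be experimentally checked, was at 26, 34, 19.2, 29.9 and 36.6 CPM with both catalases and at 7.10, 16.9, 16.0, 5.49, 8.21 and 8.92 CPM in the controls. The groups did not overlap, and it rose by 1.63 ± 0.25 on the log2 scale (adjusted p = 0.0233). Its log2 difference was 0.76 in library 1 alone, 1.64 in library 2 alone and 1.18 ± 0.27 in the covariate model (adjusted p = 0.157, limma voom), and it was called in 11 of 22 alternatives (adjusted p between 8.4e-09 and 1). Rpl19-ps11, a processed pseudogene of a ribosomal protein on chromosome 8 (19492936 to 19493526, plus strand), was at 0, 1.27, 0, 1.99 and 0 CPM with both catalases and at 75.0, 55.6, 16.7, 29.4, 4.5 and 20.5 CPM in the controls. It was called lower (adjusted p = 0.0143), with counts of 0 to 19 per tumor against 17 to 169, and the level within the control group spanned a wide range. Reads of a pseudogene can be shared with its parent gene, so its level is uncertain. In library 2 it was at 0 in all 5 tumors with both catalases and between 5.72 and 85.1 CPM in the 6 controls. In library 1 of the controls it was at 0 in replicates 2, 3, 4 and 5 and at 171 and 117 CPM in replicates 1 and 6.

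The genes next in order by p did not pass. Among those higher with both catalases, the log2 difference was 0.91 for Atic, an enzyme of purine synthesis, 1.16 for Ino80, a chromatin remodeler, 1.14 for Colgalt1, which glycosylates collagen, 0.67 for Birc6, an inhibitor of apoptosis, 1.12 for Plec, a cytoskeletal linker, and 0.68 for Zbtb38, a zinc finger protein that binds methylated DNA. For Brca2, which acts in repair of DNA breaks, it was 0.87. It was 0.84 for Senp6, a SUMO protease, 1.31 for Cep250, a centrosomal linker, 0.64 for Laptm5, a lysosomal protein of blood cells, and 1.26 for Atxn7l3, a subunit of the SAGA deubiquitinase. All 11 had an adjusted p of 0.065 (edgeR). Birc6, an example, was between 69.0 and 78.7 CPM with both catalases and between 38.2 and 62.9 CPM in the controls, and its difference was 0.68 in library 1, 0.47 in library 2 and 0.59 ± 0.13 in the covariate model. Ino80, by contrast, was at 1.16 in the sum, 0.74 in library 1 and 0.49 in library 2.

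Of the genes lower with both catalases that did not pass, Rrm2b, a ribonucleotide reductase subunit induced by p53, was between 39.8 and 61.0 CPM with both catalases and between 51.1 and 148 CPM in the controls. Its log2 difference was -0.83 in the sum, -0.82 in library 1, -0.57 in library 2 and -0.51 ± 0.17 in the covariate model. Zfp605, a zinc finger protein, was at -1.08, -1.20, -0.61 and -0.70 in the same order. For Mtfmt, which formylates the initiator tRNA of mitochondria, and Myom2, a protein of the muscle sarcomere, the difference was -0.74 and -0.79 in the sum and -0.23 and -0.31 in library 2. The same held for Cul9 (-0.82 and -0.30), a cullin that binds p53, for Prodh2 (-0.74 and -0.12), which oxidizes hydroxyproline, for Pbld1 (-0.73 and -0.27), for Dync2i2 (-0.80 and -0.34), an intermediate chain of the ciliary dynein, for Saysd1 (-0.67 and -0.17) and for ENSMUSG00000097667 (-0.91 and -0.36), a long noncoding RNA gene on chromosome 12. AU022252 was at -0.56 in the sum and at 0.11 in library 2, with the opposite sign.

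The genes that differed in the sum resembled the genes that differed between the libraries. In the 5 4T1-CAT tumors given alum alone, library 1 was compared with library 2 within tumors, and edgeR called 844 of 10807 genes (7.81%), 204 higher and 640 lower in library 1. No tumor of this comparison enters that contrast. Of the 910 genes higher with both catalases at unadjusted p under 0.05, 801 were measured there and 79.8% were higher in library 1, against 50.5% of all 10798 genes measured in both. Of the 1252 lower genes, 1177 were measured there and 86.5% were lower in library 1, against 49.5% of all genes. Median gene length (merged exons, GENCODE M21) was 5512 bases in the 910 higher genes and 3343 bases in the 1252 lower genes, beside 4233 bases in all genes tested. For genes higher and lower in library 1 of the 4T1-CAT alum tumors at unadjusted p under 0.05, the same medians were 4872 and 2384 bases. With library 2 alone, the 210 higher genes had a median length of 3161 bases and the 151 lower genes 4156 bases, so the order of the lengths was turned. Long noncoding RNAs, pseudogenes and unchecked predicted genes made up 28.8% of the lower genes and 5.49% of the higher genes in the sum, beside 11.6% of all genes tested, and 15.2% and 10% in library 2 alone.

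**Figure D2:**
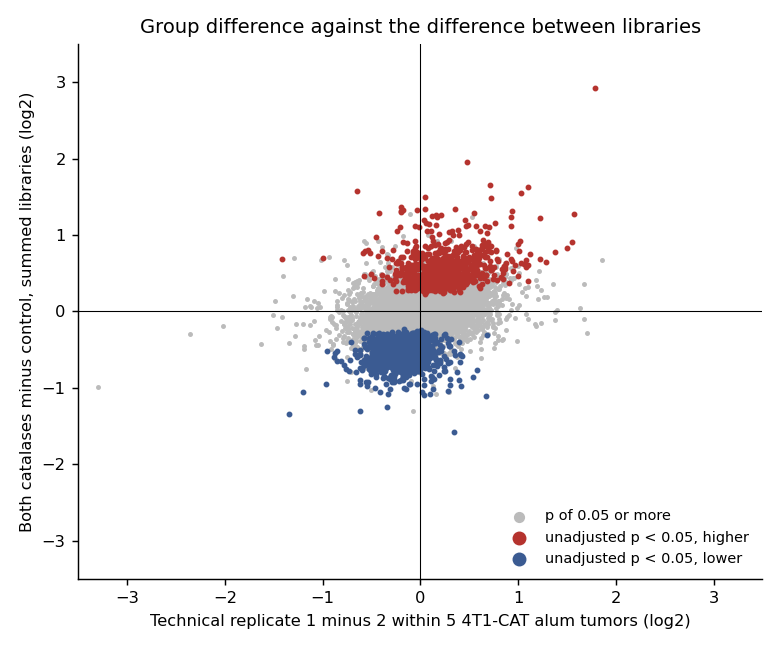
Each point is a gene, with the log2 difference between library 1 and library 2 within the 5 4T1-CAT alum tumors on the x axis and the log2 difference between both catalases and control in the summed counts on the y axis. Genes higher at unadjusted p under 0.05 (red) lie mostly to the right of 0 and genes lower (blue) mostly to the left, 79.8% and 86.5% of those measured on both axes. Points beyond 3.5 on either axis are not shown.

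Against the controls, medians of gene lists are therefore given mostly in 4 readings, in the order of the sum, library 1 alone, library 2 alone and the covariate model. The libraries of a tumor share its RNA, so these are not independent samples of tumors. The filter on low counts can be met by the tumors of a single group. Genes with few counts, such as Foxp3, Prf1, Ptx3 and Cxcl2, may therefore be tested only through the group where they are higher. Such genes enter the counts and medians of their lists. Of the 910 higher genes, 185 were also higher at unadjusted p under 0.05 in library 1, 108 in library 2 and 28 in both. Of the 1252 lower genes, 526 were also lower in library 1, 67 in library 2 and 13 in both. Among the 9642 genes tested in each library, 44 were at unadjusted p under 0.05 with the same sign in both libraries, 31 higher and 13 lower, and 3 with opposite signs.

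Saa3 stood first among the protein-coding genes in the covariate model. Saa3 encodes a serum amyloid A protein of the acute-phase response, made in inflamed tissue by macrophages and stromal cells, and lies on the minus strand of chromosome 7 (46711998 to 46715700). It was at 148, 83.3, 121, 72.0 and 93.8 CPM in the tumors with both catalases and at 31.9, 55.6, 60.2, 59.5, 21.4 and 54.2 CPM in the controls. No tumor of one group overlapped the other (p = 0.00216 by an exact permutation of the log2 levels, two-sided, the smallest p possible with 5 against 6 tumors). Saa3 was picked from all genes by values of these same tumors, and 262 genes (2.05%) did not overlap, so this p is not separate support. It also rests on the summed libraries. The log2 difference was 1.15 ± 0.24 in the sum (adjusted p = 0.0697, edgeR), 1.11 in library 1, 1.25 in library 2 and 1.28 ± 0.23 in the covariate model, where it rose with an adjusted p of 0.0267. Over 22 alternative settings its adjusted p lay between 7.6e-07 and 0.234, and 7 of them called it. The other calls of the covariate model are named for that reason. ENSMUSG00000106106, a ribosomal RNA gene on chromosome 17, rose by 1.24 ± 0.20 on the log2 scale (adjusted p = 0.014), and ENSMUSG00000105361, a noncoding gene that lies inside the ribosomal RNA gene on the same strand, fell by 5.42 on the log2 scale (adjusted p = 0.0267). Reads of overlapping genes can be exchanged. The second was at 0, 0.850, 3.43, 0 and 85.8 CPM with both catalases, so 1 tumor stood above all controls (23.5 to 75.0 CPM), and its difference in the sum was -0.98.

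The other acute-phase and innate defense proteins showed higher values as well. Of 26 genes in the list, 16 were tested and 15 had a difference above 0, with a median of 0.56 in the sum, 0.48 in library 1, 0.60 in library 2 and 0.52 in the covariate model, beside medians of all genes of 0.025, 0.019, -0.003 and -0.006. At unadjusted p under 0.05, 4 were higher and 0 lower in the sum. They were Saa3, Ptx3 (1.27), a soluble pattern recognition protein, and the serine protease inhibitors Serpina3g (0.68) and Serpina3n (0.56). The neutrophil attractant Cxcl5 was between 10.1 and 26.5 CPM with both catalases and between 2.38 and 9.68 CPM in the controls, a log2 difference of 1.29 ± 0.31 that did not pass (adjusted p = 0.0846), with 0.65 in library 1 and 1.64 in library 2. Of the CXC chemokines, 9 of 12 were tested, 2 of them (Cxcl5 and Cxcl2) were higher at unadjusted p under 0.05 and the medians were 0.53, 0.32, 0.29 and 0.48. The CC chemokines were at a median of 0.03 in the sum, 0.21 in library 1, 0.30 in library 2 and 0.38 in the covariate model, with Ccl9 at 0.40 and Ccl17 at -0.57 in the sum.

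Genes induced by interferon gamma were on the higher side without exception in the sum. All 18 tested of 20 genes had a difference above 0 in the sum, 8 of them were higher at unadjusted p under 0.05 and 0 lower, and edgeR called 0 after adjustment. Among the 22 alternatives, Iigp1 was called in 3 (adjusted p between 7.08e-05 and 1) and Irgm2 in 2 (between 0.00874 and 1), whereas Ciita and Cd274 were called in 0. The median was 0.59 in the sum, 0.45 in library 1, 0.60 in library 2 and 0.66 in the covariate model, and 5, 4 and 10 members were higher at unadjusted p under 0.05 in the last 3, with 0 lower in each. Irgm2, an immunity-related GTPase, was at 85.7, 72.0, 67.2, 51.2 and 44.9 CPM with both catalases and at 33.3, 31.4, 45.8, 35.6, 28.1 and 59.5 CPM in the controls. The groups overlapped by control replicates 3 and 6, and the log2 difference of 0.68 ± 0.20 did not pass (adjusted p = 0.106). Iigp1, of the same family, was between 32.1 and 112 CPM with both catalases and between 18.2 and 50.8 CPM in the controls, with a difference of 1.05 ± 0.30 (adjusted p = 0.103). Ciita, the master regulator of MHC class II genes, was between 10.3 and 13.3 CPM and between 2.42 and 10 CPM, and Cd274, which encodes the checkpoint ligand PD-L1, between 10.4 and 17.9 CPM and between 2.91 and 14.1 CPM. The summed level of the list overlapped between the groups, with 660 to 1630 CPM and 614 to 1140 CPM. Ifng itself had 22 counts in the 11 tumors and was not tested. Genes that respond to type I interferon were at medians of 0.08, 0.08, 0.08 and 0.02, with 6 higher and 1 lower of 30 at unadjusted p under 0.05 in the sum and 0 and 0 in library 2. The MHC class I pathway was at 0.13, 0.17, 0.09 and 0.12, with 2 higher and 1 lower of 17 in the sum.

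Promoters of interferon-responsive genes carry sites for the interferon regulatory factors, and 3 promoters are shown because they carry such letters in genes of the higher lists. RefSeq promoters (250 bases before to 50 after the start, GRCm38.p6) were found for 14 genes of the interferon gamma list, with 16 promoters. The interferon-stimulated motif, GAAA followed by any 2 bases and GAAA on either strand, was in 10 of these 16 (62.5%) and in 3.44% of all 32851 promoters. It was in 1 of 24 promoters (4.17%) of the acute-phase list. The interferon gamma list was written from genes known to respond to interferon, so its share describes the list and not these tumors. Promoters of Cxcl9, Cd274 and Irf1, of the interferon gamma list, had 0 matches. Matches are given in capitals, and a match describes letters and not binding. Irgm2 (chr11:58214727-58215026, plus strand) and Gbp2 (chr3:142620413-142620712, plus strand) are in the interferon list, and Saa3 (chr7:46715627-46715926, minus strand) is in the acute-phase list. Gbp2, a guanylate-binding protein, was chosen after its values were seen, with a log2 difference of 0.44 in the sum and 0.37 in library 2 that did not pass.
Irgm2: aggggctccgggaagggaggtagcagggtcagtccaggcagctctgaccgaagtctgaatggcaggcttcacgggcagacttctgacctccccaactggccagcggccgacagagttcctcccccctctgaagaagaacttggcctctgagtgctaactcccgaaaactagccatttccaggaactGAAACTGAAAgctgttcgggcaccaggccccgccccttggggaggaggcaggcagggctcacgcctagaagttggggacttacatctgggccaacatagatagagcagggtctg
Gbp2: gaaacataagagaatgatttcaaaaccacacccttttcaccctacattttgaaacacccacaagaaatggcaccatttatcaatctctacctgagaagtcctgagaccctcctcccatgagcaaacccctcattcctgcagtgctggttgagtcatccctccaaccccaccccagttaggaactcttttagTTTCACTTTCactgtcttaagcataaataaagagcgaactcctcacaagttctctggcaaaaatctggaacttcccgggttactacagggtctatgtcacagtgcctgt
Saa3: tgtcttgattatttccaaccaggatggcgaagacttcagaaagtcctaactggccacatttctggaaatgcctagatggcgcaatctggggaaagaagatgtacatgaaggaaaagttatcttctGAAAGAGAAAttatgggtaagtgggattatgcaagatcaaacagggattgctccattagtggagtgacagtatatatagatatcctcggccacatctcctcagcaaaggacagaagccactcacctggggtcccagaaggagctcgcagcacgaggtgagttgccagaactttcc

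**Figure D3:**
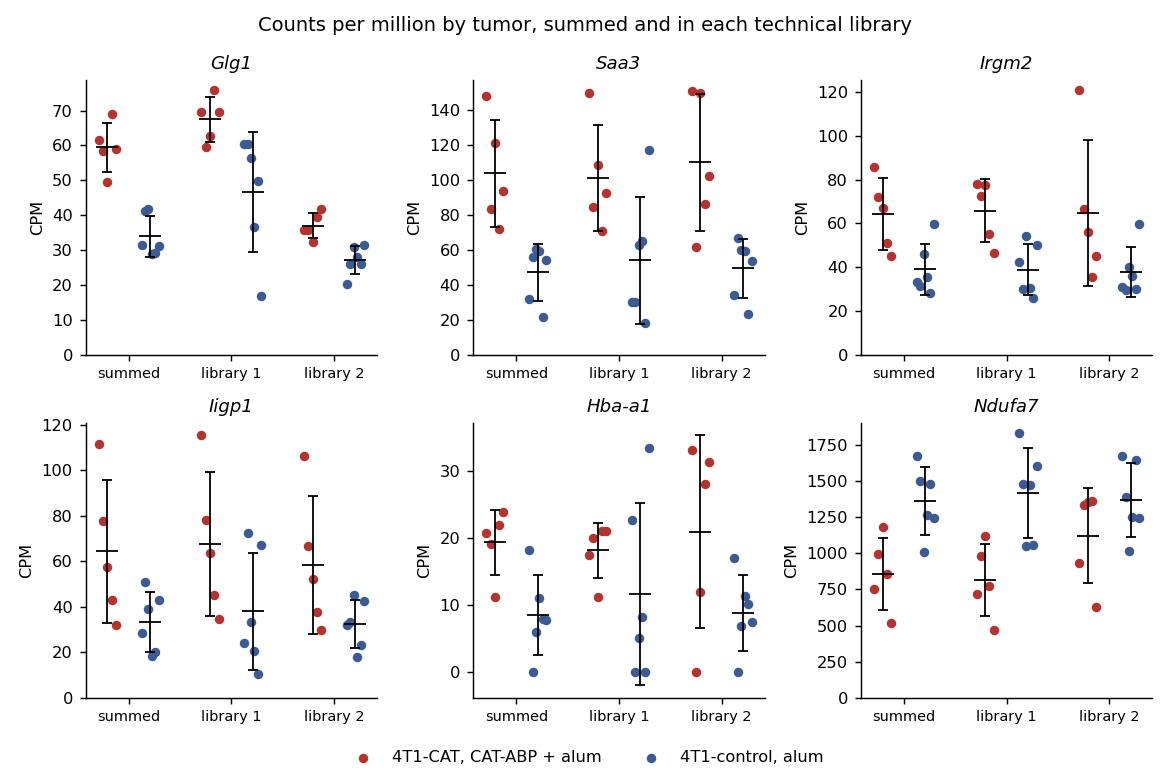
CPM of 6 genes in each tumor (points, red for both catalases and blue for control), in the summed counts and in each library, with mean and SD over 5 and 6 tumors. Saa3 and Irgm2 show a log2 difference of like size in each library, and Iigp1 is at 1.23 in library 1 and 0.83 in library 2. Glg1 has a higher mean in library 1 than in library 2 in both groups, with a log2 difference of like size in each. Ndufa7 is closer between the groups in library 2.

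Markers of blood, immune and stromal cells were mostly on the higher side. In whole tumors, more cells of a type and more RNA per cell cannot be told apart. Of the erythroid markers, 7 of 15 were tested and all 7 were above 0, with a median of 0.72 in the sum, 0.61 in library 1, 0.55 in library 2 and 0.90 in the covariate model. The alpha globin gene Hba-a1 was at 20.7, 19.1, 11.2, 21.9 and 23.9 CPM with both catalases and at 18.2, 0, 5.89, 11, 7.94 and 7.81 CPM in the controls, a log2 difference of 1.05 ± 0.29 (adjusted p = 0.103). The beta globin gene Hbb-bs was at 0.52 in the sum and 0.90 ± 0.19 in the covariate model. Hba-a1 and Hba-a2 are near-identical copies, so reads may be split between them. The summed erythroid level was 174 to 191 CPM with both catalases and 97 to 269 CPM in the controls, where replicate 2 was highest for Hbb-bs. Of the markers of red cell precursors, Car1 was at 0 counts, and Klf1 had 9 and Alas2 26 counts over all tumors.

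Of the neutrophil markers, 12 of 23 were tested and all 12 were above 0 (median 0.43 in the sum, 0.30 in library 1, 0.54 in library 2 and 0.46 in the covariate model), with summed levels of 232 to 388 CPM and 164 to 296 CPM. Some lists share genes, so their values are not separate observations. S100a8, S100a9, Lcn2 and Retnlg are in both the neutrophil and the acute-phase list, and Hdc is also a mast cell and basophil marker. Hdc, which makes histamine, was between 5.52 and 20.1 CPM with both catalases and between 2.38 and 8.51 CPM in the controls (1.30 ± 0.38, adjusted p = 0.106), and Csf3r, the receptor for G-CSF, was at 0.63. The granule genes Elane and Ngp were at 0 counts, and Ly6g had 13 counts in all. The T cell markers were at a median of 0.55 in the sum, 0.02 in library 1, 0.64 in library 2 and 0.48 in the covariate model, with 5 higher and 0 lower at unadjusted p under 0.05 of 14 tested of 22 genes in the sum, although 5 were tested in library 1. Their summed level was 87.1 to 136 CPM with both catalases and 54.5 to 84.7 CPM in the controls, without overlap. No other of the 42 lists was without overlap, and 2.05% of all single genes tested were. These levels are from the summed libraries, in which library and group cannot be told apart. Foxp3, the factor of regulatory T cells, was at 9 to 47 counts per tumor with both catalases and at 0 to 13 in the controls. These counts are few and not scaled for depth, which was greater with both catalases. After scaling, the log2 difference of Foxp3 was 1.49 ± 0.53 (adjusted p = 0.16, edgeR), and Icos, Trbc2 and Cd2 were at 0.89, 0.50 and 0.71. Of the NK and cytotoxic genes, Gzmb and Prf1 (0.63 and 1.03), which encode a granzyme and perforin, were on the higher side and Eomes (-0.87), a transcription factor of NK and T cells, on the lower side, with list medians of 0.36, 0.95, 0.33 and 0.58 and 8, 4, 5 and 8 genes tested. Of the monocyte markers, 12 of 15 were tested, 8 were above 0 in the sum and 6 in the covariate model, 3 were higher and 0 lower at unadjusted p under 0.05 in the sum, and the medians were 0.17, 0.04, 0.22 and 0.09. Ly6c2, the member with the smallest p, was between 15.1 and 30.4 CPM and between 4.84 and 17.4 CPM (0.80 in the sum, 1.15 in library 1, 1.08 in library 2). The macrophage markers were at medians of -0.14, -0.05, -0.03 and -0.12, with 6 of 20 above 0 in the sum, although the scavenger receptor Cd163 was at 1.25 and the mannose receptor Mrc1 at 0.56. Of 22 B and plasma cell markers 3 were tested, and Cd79a and Ighg1 were at 0 counts. The part of these cell type markers in the interferon gamma and acute-phase values was not tested.

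Stromal genes had smaller medians. Of the fibroblast and matrix genes, 36 of 37 were tested, 5 were higher and 0 lower at unadjusted p under 0.05, and the median was 0.16 in the sum, 0.21 in library 1, 0.13 in library 2 and 0.22 in the covariate model. Adamts5, a protease that cleaves aggrecan, led with 1.13 in the sum and 1.28 in library 2, followed by Fbn1 (0.57), Prelp (0.80) and Col12a1 (0.39). Of the endothelial markers, 3 of 20 were higher and 0 lower (medians 0.23, 0.30, 0.26 and 0.26), with Plvap (0.97), a protein of endothelial diaphragms, and Ednrb (1.23), an endothelin receptor. Of the skeletal muscle markers, 14 of 25 were tested, 8 were above 0, 3 were higher and 1 lower at unadjusted p under 0.05 in the sum, and the medians were 0.04, 0.25, 0.13 and 0.22. The sarcomere genes Ttn (1.12), Myh4 (1.48) and Neb (0.67) were the higher ones and the troponin gene Tnnt3 (-0.35) the lower one, and Myom2, a sarcomere gene outside the list, was at -0.79. Epithelial tumor cell markers were at 0.10, 0.01, -0.05 and -0.04, with Muc1 (1.15) and Krt19 (1.02) higher at unadjusted p under 0.05 in the sum.

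**Figure D4:**
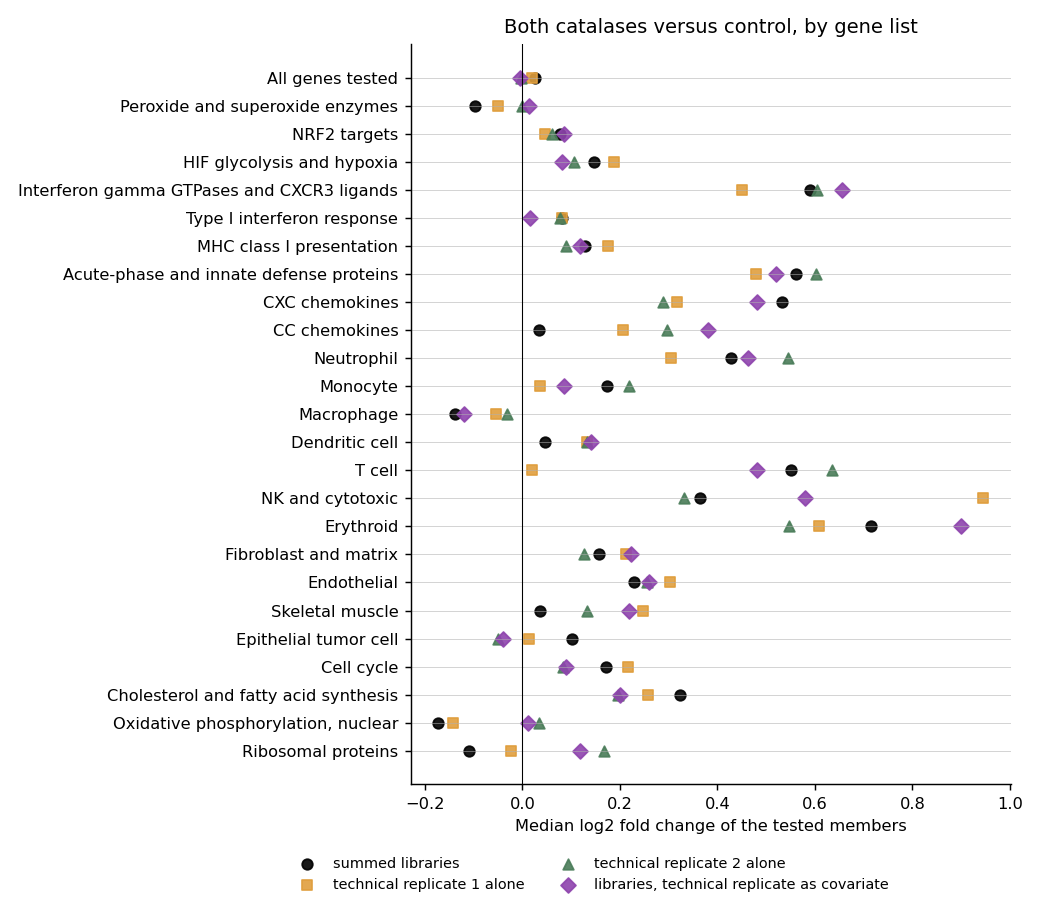
Median log2 fold change of the tested members of each gene list, both catalases against control, in the summed libraries (black circles), library 1 alone (orange squares), library 2 alone (green triangles) and the model of single libraries with technical replicate as covariate (purple diamonds). The interferon gamma, acute-phase, neutrophil and erythroid lists lie between 0.30 and 0.90 in all 4 readings, and nuclear oxidative phosphorylation moves from -0.17 in the sum to 0.03 in library 2.

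The enzymes that handle peroxide had medians near those of all genes. Mouse Cat, the host gene for catalase, was at 32.7, 41.6, 38.9, 41.2 and 36.0 CPM in tumors with both catalases and at 39.5, 43.5, 39.6, 47.4, 50.3 and 38.1 CPM in the controls, so the groups overlapped. Its log2 difference was -0.18 ± 0.13 in the sum (adjusted p = 0.506) and -0.29 ± 0.13 in the covariate model (adjusted p = 0.639, between 0.337 and 1 over 22 alternatives). Of the 25 peroxide and superoxide enzymes, 24 were tested, 1 was higher and 2 lower at unadjusted p under 0.05 in the sum, and the median was -0.10 in the sum, -0.05 in library 1, 0 in library 2 and 0.01 in the covariate model. The peroxiredoxins Prdx1 and Prdx2 were at -0.49 and -0.42 in the sum and at -0.20 and -0.19 in library 2, and the secreted glutathione peroxidase Gpx3 was at 0.77 in the sum and 0.29 in the covariate model. Of 20 genes of the peroxisome, the organelle that holds catalase, 16 were tested, 0 were higher and 2 lower, with medians of -0.13, -0.10, -0.17 and -0.16 in the 4 readings. The 8 tested subunits and regulators of the phagocyte NADPH oxidase, which makes superoxide, had 0 higher and 0 lower, with medians from -0.13 to -0.08. Sod2, the mitochondrial superoxide dismutase, was at -0.23 and Gpx7, a peroxidase of the endoplasmic reticulum, at 0.32. Of 25 NRF2 targets, 23 were tested and 0 passed an unadjusted p of 0.05 in any of the 4 readings, with medians between 0.046 and 0.086. Among them, Fth1, a ferritin chain, was at 0.31, Gsta4, a glutathione transferase, at -0.58, Abcc1, an exporter of glutathione conjugates, at 0.38, and Hmox1, a heme oxygenase, at 0.42.

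Hypoxia and glycolysis genes lay slightly above the rest. Of 42 listed genes 39 were tested, 29 had a difference above 0, 5 were higher and 1 lower at unadjusted p under 0.05, and the median was 0.15 in the sum, 0.19 in library 1, 0.11 in library 2 and 0.08 in the covariate model. The histone demethylase Kdm3a was at 0.43, the prolyl hydroxylase P4ha1 at 0.36, the glucose transporter Slc2a1 at 0.53 and glycogen synthase Gys1 at -0.47 in the sum and 0.11 in library 2. The glycolytic genes Aldoa and Pgk1 were at 0.07 and 0.01, with signs that turned between the readings, and the carbonic anhydrase Car9 at -0.08. Angptl4, a lipase inhibitor induced by hypoxia, was at 0.63 in the sum, 0.72 in library 1 and 0.75 in library 2 without passing (adjusted p = 0.314).

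Nuclear genes for mitochondrial and ribosomal proteins had medians that differed in sign between the readings. Of the nuclear genes for oxidative phosphorylation, 45 of 45 were tested, 13 were lower and 0 higher at unadjusted p under 0.05 in the sum, while in library 2 alone 0 were lower and 0 higher, with medians of -0.17, -0.14, 0.03 and 0.01. In the 4T1-CAT alum tumors the list was at -0.23 in library 1 against library 2. Ndufa7, a subunit of complex I, was between 516 and 1180 CPM with both catalases and between 1012 and 1671 CPM in the controls, with -0.66 in the sum, -0.82 in library 1 and -0.28 in library 2. Cox4i1 of complex IV, Atp5o of the ATP synthase and Ndufa2 were at -0.49, -0.51 and -0.42 in the sum and at -0.18, -0.10 and 0.03 in library 2. The 49 ribosomal protein genes were at medians of -0.11, -0.02, 0.17 and 0.12, with Rpl18 at 0.49 and Rpl35 at -0.52 in the sum. In the 4T1-CAT alum tumors this list was at -0.28 in library 1 against library 2, with 32 of 49 genes called between the libraries. Of the transcripts of the mitochondrial genome itself, 13 of 15 were tested, 0 were higher and 3 lower at unadjusted p under 0.05 in the sum and 3 higher and 1 lower in the covariate model, with medians of -0.17, -0.07, -0.08 and 0.05. The cytochrome b transcript mt-Cytb was below 0 in every reading (-0.78, -0.32, -0.57 and -0.35) without being called (adjusted p = 0.104 in the sum, edgeR), and was called in 4 of the 22 alternatives, with DESeq2, with limma voom, without a filter on low counts and without control replicate 3.

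Cell cycle and lipid synthesis genes were on the higher side by small amounts. In the 4T1-CAT alum tumors, these lists were at medians of 0.087 and 0.108 in library 1 against library 2. Of 43 cell cycle genes, 8 were higher and 0 lower at unadjusted p under 0.05 in the sum, 6 were higher in library 1, 2 in library 2 and 10 in the covariate model, with medians of 0.17, 0.22, 0.08 and 0.09. Mki67, a marker of dividing cells, was between 181 and 345 CPM and between 98.5 and 225 CPM (0.78 in the sum, 0.60 in library 1 and 0.38 in library 2), and Nusap1 and Top2a, which act on the spindle and on DNA, were at 0.40 and 0.41. Of 24 cholesterol and fatty acid genes, 8 were higher and 1 lower in the sum, but 3, 1 and 1 were higher and 0 lower in library 1, library 2 and the covariate model, with medians of 0.32, 0.26, 0.20 and 0.20. Scd1, a fatty acid desaturase, was between 37.4 and 121 CPM and between 15.1 and 49.6 CPM, with 0.97 in the sum, 1.03 in library 1 and 0.98 in library 2, whereas Acaca and Cyp51 were at 0.47 and 0.43 in the sum.

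The tumors with both catalases were compared directly with the 5 4T1-CAT tumors that received alum alone, which asks what CAT-ABP added to intracellular CAT. Of 13093 genes, edgeR called 0, with 2000 genes (15.3%) at unadjusted p under 0.05, and DESeq2 called 282. Library 1 supplied between 30.3% and 41.6% of the counts in the 4T1-CAT alum tumors, so the libraries were unevenly mixed here too. With library 2 alone, 254 of 10531 genes (2.41%) were at unadjusted p under 0.05 and 0 were called. The same tumors without CAT-ABP are set beside the combination against the shared controls. Saa3 was at 1.15 with both catalases and at 1.49 with intracellular CAT alone, a direct difference of -0.35 ± 0.30 (adjusted p = 0.6, edgeR). Hba-a1 was at 1.05 and 1.00, Cxcl5 at 1.29 and 1.64, and Foxp3 at 1.49 and 1.53. The acute-phase list was at a median of 0.56 and 0.89, and the erythroid list at 0.72 and 0.75. Glg1 was at 0.85 and 0.29 (direct difference 0.55 ± 0.13, adjusted p = 0.186), and Irgm2 at 0.68 and 0.07 (0.61 ± 0.22, adjusted p = 0.231). These gene and list values are from the summed libraries alone, and Glg1 was itself read higher in library 1 than in library 2.

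Some lists were lower with the combination than with intracellular CAT alone in each library. The fibroblast and matrix genes were at a median of -0.27 in the sum, -0.26 in library 1 and -0.29 in library 2, with 8, 9 and 9 of 36, 36 and 35 genes lower at unadjusted p under 0.05 and 0 higher. Skeletal muscle markers were at -0.63, -0.64 and -0.50, with 8, 8 and 6 lower and 0 higher, and CC chemokines at -0.61, -0.47 and -0.46, with 8, 5 and 3 lower and 0 higher. Over all genes, 8.52%, 7.36% and 1.48% were lower and 6.75%, 4.77% and 0.931% were higher in the 3 readings. Also below 0 were, among others, macrophage (-0.29, -0.28 and -0.235), dendritic cell (-0.53, -0.39 and -0.41) and T cell markers (-0.25, -0.34 and -0.28). The NK and cytotoxic list (-0.43, -0.225 and -0.39) and adipocyte markers (-0.63, -0.67 and -0.25) were below 0 as well. The interferon gamma list was on the other side, at 0.36 in the sum, 0.35 in library 1 and 0.18 in library 2, with 3, 2 and 1 members higher. Epithelial tumor cell markers (0.26, 0.22 and 0.16), MHC class I genes (0.21, 0.20 and 0.18) and cholesterol and fatty acid genes (0.27, 0.30 and 0.12) were also above 0. In the sum and against the controls, medians of 4T1-CAT with alum alone were 0.455, 0.867 and 0.517 for the fibroblast, muscle and chemokine lists. Those of the combination were 0.156, 0.036 and 0.034 in the sum. In library 2 alone the combination was at 0.126, 0.132 and 0.296, and in the covariate model at 0.222, 0.218 and 0.381. For 4T1-CAT with alum alone, medians against the controls were computed in the sum only. Within the 4T1-CAT alum tumors, the chemokine list was at -0.435 in library 1 against library 2. The part of the library mix in the summed values was not tested. For the interferon gamma list the summed values were 0.277 without CAT-ABP and 0.589 with it. No member of these lists was called by edgeR, and the 282 genes called by DESeq2 were not counted by list.

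**Figure D5:**
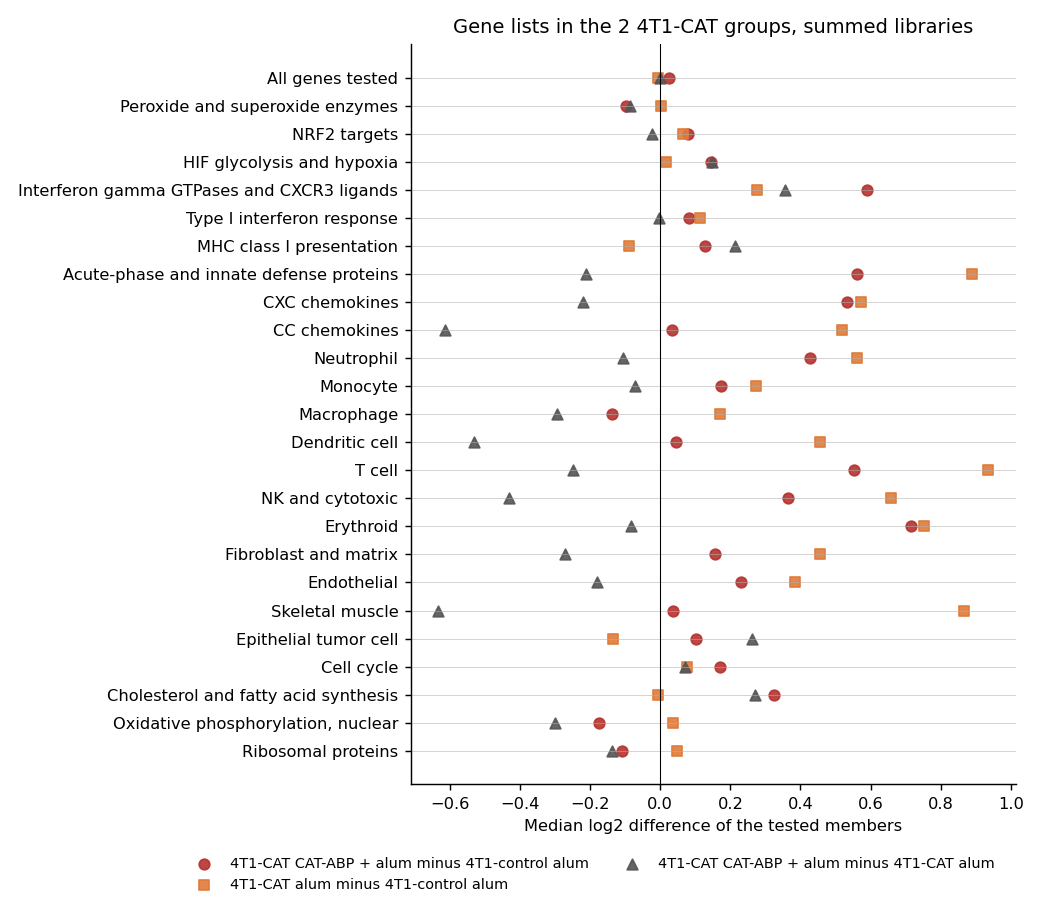
Median log2 difference of the tested members of each list in the summed libraries for both catalases against control (red circles), for 4T1-CAT with alum against the same 6 control tumors (orange squares) and the direct contrast of both 4T1-CAT groups (grey triangles). The direct contrast is at -0.63 for skeletal muscle and at 0.36 for the interferon gamma list.

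The effect of both catalases was also set against that of CAT-ABP in unmodified 4T1 tumors, in which 6 tumors with CAT-ABP + alum and 5 with alum were compared without DOX. The interaction, which shares no tumor between the effects, was called for 0 of 13682 genes by edgeR and for 1 gene by DESeq2, with 1149 genes at unadjusted p under 0.05 in edgeR. In library 2 alone, edgeR called 0 of 10924 genes for the interaction, with 296 at unadjusted p under 0.05. The interferon gamma list was at a median interaction of 0.53, beside 0.02 for all genes, and 2 of 19 members were higher and 0 lower at unadjusted p under 0.05, where 2.5% of all genes were higher and 5.9% lower. The list of cholesterol and fatty acid genes was at 0.34, with 7 higher and 1 lower of 24. These list values come from the sum, in which library and group cannot be told apart for both catalases against control. Single-library values of the lists were not computed for the interaction.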

How the data were processed

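The authors sequenced RNA of whole tumors with HT3DGE, a modified SCRB-seq method that reads near the 3′ end of transcripts, counted it with the Smart-seq2 pipeline, and deposited estimated counts, 1 value per gene and library, which are not normalized. A share of 39.7% of the values above 0 was not whole. The genome build is not given in the sources used here, but all 55536 gene identifiers match GENCODE M21 (GRCm38). The authors left out some technical replicates without naming them, and here all were kept.

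Counts of the 2 libraries of a tumor were summed, rounded and tested by edgeR 4.0.16 (quasi-likelihood test, filterByExpr, TMM, Benjamini-Hochberg), and each fit held the compared groups alone. CPM were TMM-scaled. The covariate model was limma 3.58.1 voom with quality weights and a within-tumor correlation of 0.175, the same for all genes. For single genes and totals, all 462 splits of the tumors gave an exact permutation p (two-sided, log2 CPM with a prior count of 2). Alternatives were DESeq2 1.42.0, RLE size factors, no filter or a mean of at least 20 counts, a joint fit of 7 groups, a block for the replicate number, 1 technical replicate at a time, removal of libraries with fewer than 518752 counts, voom, a prior count of 0.5 and each tumor left out. Scripts were tested on simulated data in R 4.3.3.

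Genes named were Cat, Aldoa, Pgk1, Car9, Angptl4, Gpx7, the called genes or else the 12 of smallest p per direction (passing over predicted genes and pseudogenes), and up to 4 members of a list by p. Passing over went by the form of the symbol. It therefore kept the pseudogene Rpl19-ps11 among the 12 lower genes, and ENSMUSG00000097667, a predicted gene without a symbol here. The groups, 42 gene lists and this rule were chosen with earlier results of these data known.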

Additional observations from a re-analysis of the deposited data

Results flagged for a closer look

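In 17 of 204 sets of values per group, the highest or lowest tumor lay farther from the others than Dixon's limit at 95%, which chance alone exceeds in about 5% of sets. The total count of 4T1-control alum replicate 2 (493000) lay below the other controls (2670000 to 4570000). The same tumor was the extreme control for Atic (46 CPM, others 20 to 26.7), Atxn7l3 (0, others 2.66 to 5.8), Gpx7 (4.84, others 11.1 to 15.4), Gpx3 (2.42, others 3.79 to 4.25), Ptx3 (0, others 2.12 to 4.46), Hba-a1 (0, others 5.89 to 18.2) and Hba-a2 (91.9, others 12 to 20.4). Hba-a1 and Hba-a2 are near-identical copies, and in this tumor the counts were all on the second. The part of its low depth in these values was not tested.

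Among the other controls, replicate 3 was high for Senp6 (27.2 CPM, others 15.4 to 18.3) and Ccl9 (65.5 CPM, others 37.7 to 45.7), and replicate 5 was low for Cxcl5 (2.38 CPM, others 6.15 to 9.68). Among the tumors with both catalases, replicate 1 was high for Serpina3g (64.2 CPM, others 31.4 to 35.7) and Trbc2 (23 CPM, others 12.3 to 14.7). Replicate 2 was low for Kdm3a (32.3 CPM, others 40.1 to 42.8), replicate 3 for Senp6 (26.3 CPM, others 33.1 to 35.8), and replicate 5 for Cul9 (17.9 CPM, others 28.5 to 32.9) and Hbb-bs (63.2 CPM, others 81.6 to 87.3).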

How the results depend on the processing

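The number of genes called (3, 2 higher and 1 lower) moved with most settings. It was 491 with DESeq2 (145 higher, 346 lower), 532 without a filter on low counts (259 and 273), 331 with limma voom (204 and 127), 142 with low-depth libraries left out (125 and 17), 31 in a joint fit of 7 groups (27 and 4), 2 with RLE size factors (1 and 1), 0 in technical replicate 1 and 1 in technical replicate 2 (0 and 1). With each tumor left out in turn it ran from 0 to 575 (0 to 158 higher, 0 to 417 lower), and the genes at unadjusted p under 0.05 from 1570 to 2688. It was 575 without control replicate 3 and 131 without control replicate 2, the shallowest tumor, and the cause was not tested. Genes at unadjusted p under 0.05 (2162) were 3589 without a filter, 965 and 361 in technical replicates 1 and 2, and 935 in the covariate model, which was chosen after seeing the data. With a replicate block 1 gene was called (0 higher, 1 lower), but same-numbered tumors did not deviate together (5 pairs, correlations from -0.245 to 0.129, 1 best with its own number), so the numbers do not pair tumors. In the direct contrast with 4T1-CAT alum, DESeq2 called 282 genes, and in the interaction 1.

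Signs turned for AU022252 (0.11), Gys1 (0.11), Ndufa2 (0.034) and Sod2 (0.059) in technical replicate 2 and for Sod2 in the covariate model (0.020). Aldoa was at -0.0089 and -0.046 in technical replicates 1 and 2 and -0.035 in the covariate model. Pgk1 was at -0.0025 with DESeq2, -0.00825 with RLE, -0.00097 in technical replicate 2, -0.091 without low-depth libraries, -0.048 with limma voom, -0.022 in the covariate model and -0.0837 to 0.0933 with tumors left out. The other values of named genes kept their sign. Of the list medians, 904 of 918 recomputed values moved by less than the spread between replicates and 14 by more, among them oxidative phosphorylation, ribosomal proteins and CC chemokines in technical replicate 2. A block for sequencing pool could not be fitted to summed tumors. The shallow library 1 of the controls limits what that library alone can show.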

Other observations

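Lists that had no place in the comparisons above are given by their medians in the sum, in technical replicate 1, in technical replicate 2 and in the covariate model. The epithelial-mesenchymal transition list was at 0.19, 0.30, 0.17 and 0.18, with 3 higher and 1 lower of 16 tested genes at unadjusted p under 0.05 in the sum. Inflammasome and interleukin-1 genes were at 0.21, 0.26, 0.21 and 0.20, with 3 higher and 1 lower of 16. Heat shock and immediate early genes were at 0.18, 0.17, 0.13 and 0.11, with 2 higher and 0 lower of 19. The p53 targets were at 0.02, -0.05, -0.02 and -0.07, with 1 higher and 1 lower of 16, and genes of the integrated stress and unfolded protein responses at 0.06, 0.07, 0 and 0.05, with 1 higher and 0 lower of 24. MHC class II genes were at -0.08, -0.01, 0.01 and 0.11, with 1 higher and 0 lower of 9, and circadian clock genes at 0.06, -0.01, -0.04 and -0.07, with 0 higher and 1 lower of 12. The higher MHC class II gene was Ciita, which is also in the interferon gamma list. Mast cell and basophil markers were at 0.33, 0.29, 0.56 and 0.51, with 2 higher and 0 lower of 8, and adipocyte markers at 0.42, 0.41, 0.61 and 0.44, with 1 higher and 0 lower of 8. Hdc, among the higher genes of the first list, is also a neutrophil marker. The higher adipocyte gene was Scd1, which is also in the cholesterol and fatty acid list. Dendritic cell markers were at 0.05, 0.13, 0.13 and 0.14, with 0 higher and 0 lower of 12, pericyte and smooth muscle markers at 0.12, 0.31, 0.15 and 0.23, with 1 higher and 0 lower of 12, and RAS-MAPK output genes at 0.09, 0.09, 0.04 and -0.05, with 2 higher and 0 lower of 17. Of the epidermis, nerve and eosinophil markers, 3, 2 and 1 genes were tested, with medians of 0.02, 0.15 and 0.71 in the sum.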
